A study of Mus musculus with 6 samples.

Results

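Transcripts of the autophagy machinery were compared between hepatocytes overexpressing Aloxe3 and control hepatocytes for 40 genes, 37 of autophagosome formation, cargo capture and fusion and 3 of the MiT/TFE transcription factors (Tfeb, Tfe3 and Mitf). The genes are a list of names, drawn up with earlier results of these data known. All 40 were found among the 41388 Ensembl genes of the deposited table, and all 40 passed the filter on low values (a mean of at least 0.5 RPKM, reads per kilobase of gene and per 1000000 reads), as did 12693 genes in all. The samples were 6 RNA-seq libraries of primary hepatocytes from C57BL/6J mice, isolated by collagenase digestion, kept overnight in growth medium and then given adenovirus at about 1000000 viral particles per 1000000 cells. Replicates 1, 2 and 3 received virus encoding beta galactosidase (β-gal), a bacterial enzyme used as the control, and replicates 7, 8 and 9 received virus encoding ALOXE3 (n = 3 per group). RNA was taken 24 h later. Both groups thus carried adenovirus and cells without virus were not analysed here. The labels do not say whether replicates were separate cultures or animals, so p-values measure only the spread between these samples, which may be technical.

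Macroautophagy encloses cytoplasm in a double membrane, the autophagosome, which then fuses with the lysosome. A kinase complex built on ULK1 starts the process, a lipid kinase complex built on Beclin 1 marks the membrane, and ATG9 vesicles, ATG2 and WIPI proteins supply and shape it. A conjugation system then attaches proteins of the ATG8 family (LC3 and GABARAP) to its lipids, and cargo receptors such as p62 bind both cargo and ATG8. In liver the process is raised by fasting, when the MiT/TFE factors move into the nucleus and bind E-box sequences of the kind CACGTG before autophagy and lysosomal genes. Most of this control acts on the proteins, and RNA levels report only on the supply of transcripts.

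The sites that MiT/TFE factors can bind are short, and the promoters of the 40 genes were searched for them so that the letters stand beside the expression values below. The RefSeq promoter table (GRCm38.p6, 250 bases before to 50 bases after each start site) held 43 promoters for 33 of the 40 genes. The E-box core CACGTG, which reads the same on both strands, was present in 4 of the 43 promoters (9.3%), those of Atg3, Atg5, Atg7 and Atg14, against 7.15% of all 32851 promoters. The longer TCACGTG, which contains the core and was searched on both strands, was in 3 of the 43 (3.77% of all), and TCATGTG, searched on both strands, in 0 of the 43 (3.77% of all). The windows around each core are shown 5′ to 3′ on the strand of the gene, with the core in capitals.
Atg3, first site: ctccttttgtCACGTGtcctgggaga
Atg3, second site: agagtcgagtCACGTGaggccttagg
Atg7: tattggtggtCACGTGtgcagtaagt
Atg14: aacaaaatccCACGTGactggccctg
Atg5: gagcgcttgcCACGTGgtcttggtga

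The windows of Atg3 lie at chr16:45158725-45158750 and chr16:45158748-45158773 on the forward strand, so that the core starts 94 and 71 bases before the start site (positions -94 and -71). That of Atg7 lies at chr6:114670954-114670979 on the forward strand (-132 from the RefSeq start site), that of Atg14 at chr14:47568420-47568445 on the reverse strand (-1), and that of Atg5 at chr10:44268315-44268340 on the forward strand (-14). The RefSeq start sites of Atg7 and Atg14 lie inside these genes as GENCODE M21 annotates them (Atg7 at 114643097 to 114860614 on chromosome 6, forward strand, and Atg14 at 47540893 to 47570649 on chromosome 14, reverse strand), so that the cores of both belong to internal start sites. Rb1cc1, Becn1, Pik3c3, Atg12, Atg16l1, Map1lc3a and Epg5 had no entry. A match of letters is a description of the promoter and not evidence of binding.

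Aloxe3 itself (chromosome 11, 69125896 to 69149115) was at 2.04, 2.06 and 1.74 RPKM in the β-gal libraries and at 42.3, 45.8 and 56.3 RPKM in the Aloxe3 libraries (log2 fold change 4.05, SE 0.1, limma adjusted p = 4.7e-06), so that all 6 libraries matched their labels. The depth of the libraries, read from the whole-number steps of the RPKM values, was 25521908 to 32431318 reads, so that a single read on 1 kb of transcript stood for 0.0308 to 0.0392 RPKM. Among the hepatocyte markers, Alb, the albumin gene, had 4362 to 4552 RPKM, while Cyp2e1 and Cps1, enzymes of mature hepatocytes, were low. Cyp2e1 had 2.03 to 2.86 RPKM, with overlapping groups. Cps1 had 0.915, 0.988 and 1.05 RPKM with β-gal and 1.64, 1.29 and 1.56 RPKM with Aloxe3, which do not overlap (log2 fold change 0.33, limma adjusted p = 0.161). Of the 7 hepatocyte markers tested, 4 had groups that did not overlap (19.9% of all tested genes), Cps1 with higher values and Ttr, Serpina1a (-0.11, limma adjusted p = 0.262) and Apoa1 (-0.10, limma adjusted p = 0.349) with lower values in the Aloxe3 libraries. The summed level of 7 hepatocyte markers was 4947 to 4995 RPKM with β-gal and 4775 to 4921 RPKM with Aloxe3, and Ttr, the transthyretin gene, was the only 1 of them past the threshold (log2 fold change -0.30, limma adjusted p = 0.045). Some markers of other liver cells were read in both groups, and others were near 0 in both. Clec4g, Des, Pdgfrb, Reln and Krt7 had group means of 0.13 RPKM or less, and whether cells of these types were present was not tested. Markers of Kupffer cells, the macrophages of the liver, summed to 151 to 154 RPKM with β-gal and 133 to 146 RPKM with Aloxe3, nearly all from Cd68, with Clec4f and Vsig4 at 0.102 RPKM or less. The sums were 24.6 to 28.7 and 24.5 to 28.6 RPKM for endothelial markers, mostly Cdh5. They were 3.55 to 3.78 and 3.15 to 3.62 RPKM for stellate cell markers, mostly Col1a1, with Lrat at 0 in every library. For cholangiocyte markers they were 1509 to 1593 and 1577 to 1716 RPKM, mostly Spp1. The test covered 5 of 7 Kupffer cell, 4 of 6 endothelial, 2 of 6 stellate cell and 3 of 5 cholangiocyte markers, and none of these tested markers was past the threshold. Cd68 (-0.15, limma adjusted p = 0.262) and Acta2 (-0.10, limma adjusted p = 0.54) had lower values in every Aloxe3 library, as had Epcam, which was under the filter (0.426 ± 0.029 against 0.265 ± 0.097 RPKM, SD over 3 libraries). Groups did not overlap for 1 of 5 tested Kupffer cell, 0 of 4 endothelial, 1 of 2 stellate cell and 0 of 3 cholangiocyte markers (19.9% of all tested genes). Log2 fold changes were above 0 for 1, 2, 0 and 2 of these markers, among them Csf1r (0.057), Sox9 (0.042) and Spp1 (0.11), with overlap. The part of other cell types in the values below was not tested. In such bulk samples a change in the number of cells of a type and a change in RNA per cell cannot be told apart.

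No gene of the autophagy machinery or of the MiT/TFE factors passed the test. Of the 40 genes, 0 had an adjusted p under 0.05 (limma on log2(RPKM + 1), Benjamini-Hochberg over all 12693 genes, two-sided), where 0.394% of all tested genes did (0.355% higher and 0.0394% lower with Aloxe3). The smallest adjusted p among the 40 was 0.289. Log2 fold changes (Aloxe3 over β-gal) ran from -0.14 for Gabarapl2 to 0.16 for Atg4a, with a median of -0.025 against 0.0049 over all tested genes, and 26 were below 0 and 14 above (47.6% and 52.4% of all tested genes). Of all tested genes, 10.2% had a log2 fold change farther from 0 than that of Atg4a. The 95% intervals, taken gene by gene, rest on the spread between these libraries, which may be technical. On this scale all 40 lay within 1.25-fold in either direction, from -0.29 at the lowest to 0.31 at the highest. In other settings they were wider, though within 1.5-fold. They ran from -0.45 to 0.48 with 0.1 RPKM added in place of 1. With 1 library left out they reached down to -0.35 and up to 0.37. The scale understates changes of genes near or below 1 RPKM. In a fit of the derived reads with voom, which has no added RPKM, the 40 log2 fold changes ran from -0.18 to 0.27 with intervals from -0.53 to 0.52, all within 1.5-fold, and again 0 genes passed. The lowest bound belonged to Atg10. For Atg10 and some others of the 40 the derived reads are only a lower limit, so their voom intervals are approximate.

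**Figure D1:**
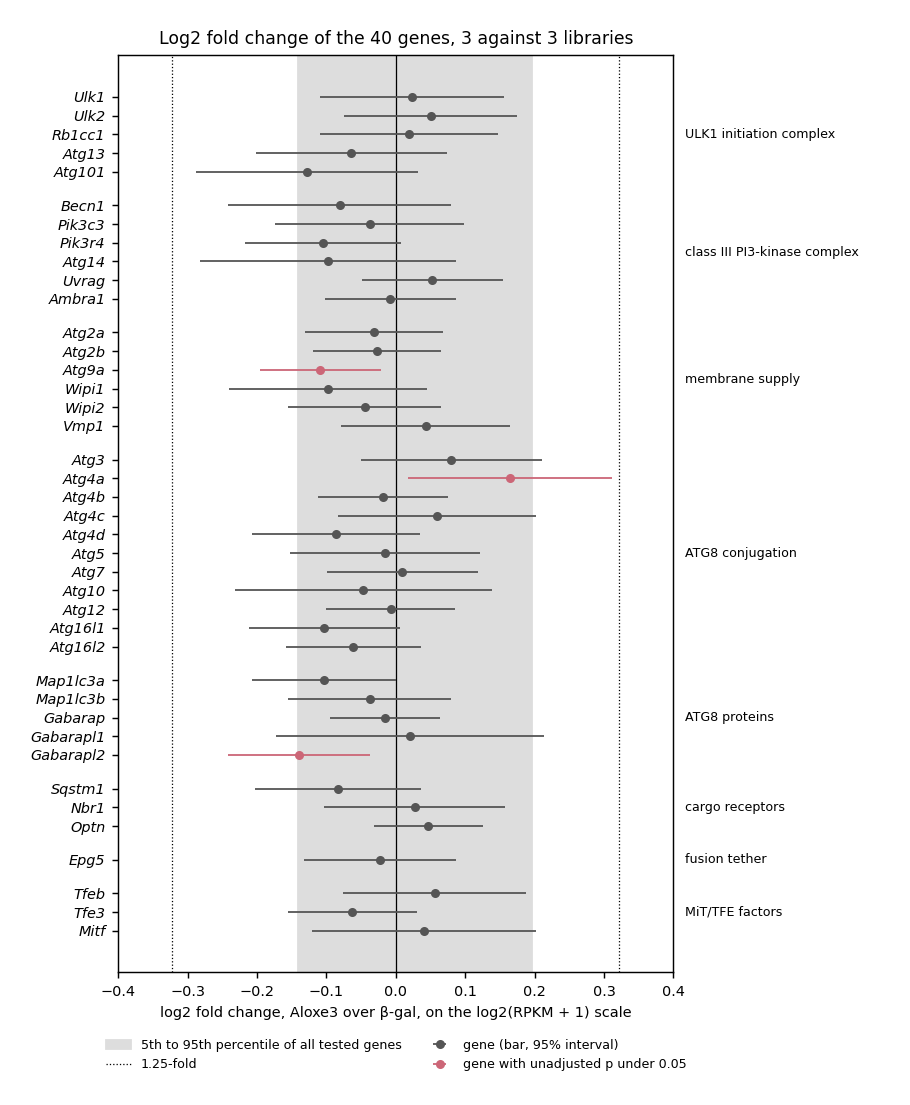
Log2 fold change of each of the 40 genes, Aloxe3 over β-gal on the log2(RPKM + 1) scale (horizontal axis), by role, with points for the limma estimate and bars for its 95% interval (3 libraries per group). The grey band spans the 5th to 95th percentile of all tested genes (-0.14 to 0.2), the dotted lines mark 1.25-fold, all 40 bars lie between these lines, and the 3 coloured genes have an unadjusted p under 0.05.

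Before adjustment 3 genes had p under 0.05 (limma), Gabarapl2 and Atg9a with lower values and Atg4a with higher values in the Aloxe3 libraries. This is 7.5% of the 40, against 12.7% of all tested genes (7.31% higher and 5.42% lower). In 8 of the 40 genes (20%) the 3 Aloxe3 values all lay on one side of the 3 β-gal values, against 19.9% of all tested genes, a share near the background. They lay above for 2 genes (11.2% of all), Atg4a and Optn, and below for 6 genes (8.71% of all), Pik3r4, Atg9a, Atg16l1, Atg16l2, Gabarapl2 and Tfe3. The count at an unadjusted p under 0.05 depended on single libraries. Without β-gal replicate 2 there were 0 lower and 1 higher at an unadjusted p under 0.05 (8.15% of all tested genes), without Aloxe3 replicate 7 there were 8 lower and 0 higher (14.4% of all), and without Aloxe3 replicate 8 there were 4 lower and 0 higher (11.6% of all). Without β-gal replicate 1 or 3 there were also 0 higher. With 2 libraries left in a group the count of genes without overlap rose for all genes alike. It was 13 of 40 without β-gal replicate 1 (29.6% of all tested genes), 15 without Aloxe3 replicate 7 (32.9%) and 13 without Aloxe3 replicate 9 (31.2%).

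Levels of the 40 genes spanned 3 orders of magnitude and differed far more between genes than between groups. Per length, the mean over β-gal libraries was lowest for Atg10 at 0.888 RPKM and highest for Sqstm1 at 910.3 RPKM, with a median of 12.3 RPKM, against a median of 6.85 RPKM for all tested genes. In the Aloxe3 libraries the median was 12 RPKM. The replicates were close: the median coefficient of variation (SD over mean) of the 40 genes was 3.44% among β-gal and 5.24% among Aloxe3 libraries, and 4.5% and 5.98% for all tested genes.

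**Figure D2:**
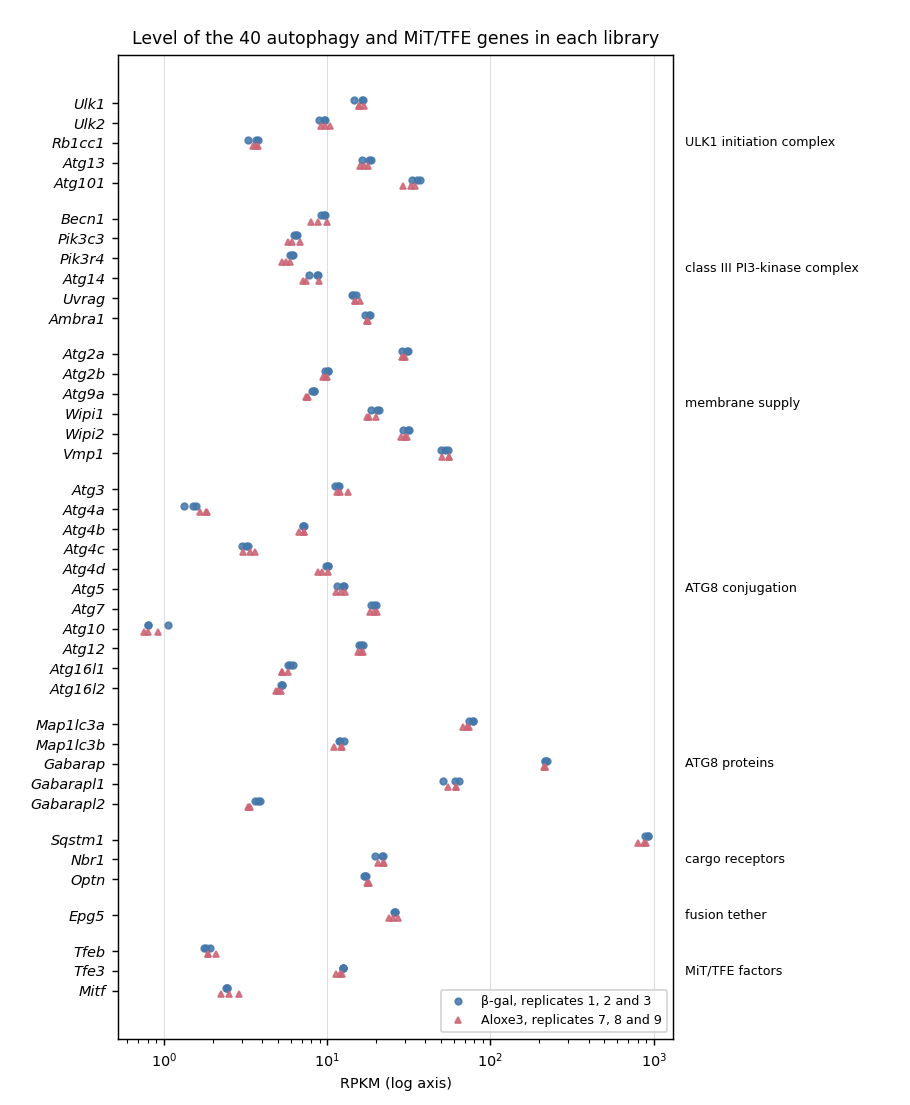
RPKM (horizontal log axis) of each of the 40 genes in each of the 6 libraries, grouped by role, with circles for β-gal and triangles for Aloxe3. Genes spread from below 1 RPKM (Atg10) to between 807.4 and 926.5 RPKM (Sqstm1), while the 2 groups of a gene lie close together.

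The ULK1 complex receives the signal to start autophagy from nutrient-sensing kinases. Its 5 genes had a median log2 fold change of 0.019, and 0 passed the test (smallest adjusted p = 0.487 from limma). Ulk1, the kinase itself, was at 14.5, 16.5 and 16.6 RPKM with β-gal and at 15.8, 15.8 and 16.8 RPKM with Aloxe3. The groups overlapped, with a log2 fold change of 0.023 (95% interval -0.11 to 0.16). Atg101, which stabilizes the partner protein ATG13, had the lowest log2 fold change of the complex. It was at 37.1, 35.7 and 33 RPKM with β-gal and at 32.7, 34.8 and 29.3 RPKM with Aloxe3, so that Aloxe3 replicate 8 lay within the β-gal range. Its log2 fold change of -0.13 had an SE of 0.069 (limma adjusted p = 0.487), and was -0.062 without Aloxe3 replicate 9. The second kinase Ulk2 (0.05), the scaffold Rb1cc1, which encodes FIP200 (0.019), and Atg13 itself (-0.064) had overlapping groups. With 1 library left out Ulk2 ranged from 0.0095 to 0.091 and Atg13 from -0.12 to -0.026.

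The class III PI3-kinase complex makes the phosphoinositide that recruits later factors. Of its 6 genes, 5 had a log2 fold change below 0 and the median was -0.059, with 0 past the test (smallest adjusted p = 0.421 from limma). Becn1, which encodes the scaffold Beclin 1, was at 9.17, 9.54 and 9.67 RPKM with β-gal and at 9.93, 8.81 and 8.02 RPKM with Aloxe3. The Aloxe3 values straddled the β-gal range, and the log2 fold change was -0.081 (95% interval -0.24 to 0.08). Without Aloxe3 replicate 9 it was -0.014 and without replicate 7 it was -0.15. Of the 50-base windows of annotated Becn1 transcripts, 36.8% also occur in Cntd1, a gene that overlaps it and had 0.0697 RPKM or less. Atg14, the subunit that directs the kinase to autophagy and has an E-box core next to its internal RefSeq start site, was at 7.8, 8.76 and 8.74 RPKM with β-gal and at 7.44, 8.9 and 7.17 RPKM with Aloxe3. Its highest value was thus in an Aloxe3 library, and the log2 fold change was -0.098 (95% interval -0.28 to 0.087). It was -0.15 without β-gal replicate 1, -0.18 without Aloxe3 replicate 8 and -0.044 without Aloxe3 replicate 9. The regulatory subunit Pik3r4 was below β-gal in every Aloxe3 library (6.1 ± 0.12 RPKM with β-gal against 5.6 ± 0.33 RPKM, SD over 3 libraries), and its log2 fold change was -0.1 (limma adjusted p = 0.421) and -0.068 without Aloxe3 replicate 9. The groups overlapped for the catalytic subunit Pik3c3 (-0.038), for Uvrag, a subunit of the complex at endosomes (0.052, and 0.021 without Aloxe3 replicate 8), and for Ambra1, a regulator of Beclin 1 (-0.0079). Without Aloxe3 replicate 9 the value of Pik3c3 was 0.0076.

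Genes of membrane supply numbered 6, with a median log2 fold change of -0.038. Atg9a, the membrane-spanning lipid scramblase carried on vesicles (chromosome 1, 75180860 to 75192196), was at 8.34, 8.29 and 8.04 RPKM with β-gal and at 7.55, 7.68 and 7.43 RPKM with Aloxe3. Every Aloxe3 value lay below every β-gal value, for a log2 fold change of -0.11 (95% interval -0.2 to -0.021, unadjusted p = 0.021 and adjusted p = 0.313 from limma), so that Atg9a did not pass. Its unadjusted p was 0.0624 without β-gal replicate 1 and 0.0734 without β-gal replicate 2 (limma), with intervals that include 0. Reads numbered 1110 to 1550 per library. Of its 50-base windows 30.5% occur in other genes, almost all in the overlapping transcript Gm29253, which had 0.0129 RPKM or less. The other 5 genes all had overlapping groups. They were the lipid transfer genes Atg2a (-0.032) and Atg2b (-0.027), Wipi1 (-0.098) and Wipi2 (-0.045), which bind the phosphoinositide, and Vmp1 (0.043), a scramblase of the endoplasmic reticulum, with adjusted p from 0.542 to 0.812 (limma). With 1 library left out all 5 moved by more than 1.5 times, Atg2a from -0.069 to -0.007, Atg2b from -0.044 to -0.005, Wipi1 from -0.15 to -0.062, Wipi2 from -0.081 to -0.013 and Vmp1 from 0.0058 to 0.086.

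The conjugation system attaches ATG8 proteins to lipid. Its 11 genes had a median log2 fold change of -0.016, with 4 above 0 and 7 below, and 0 passed. Atg4a, a protease that trims ATG8 proteins (chromosome X, 140956907 to 141164270), was at 1.33, 1.59 and 1.51 RPKM with β-gal and at 1.84, 1.82 and 1.66 RPKM with Aloxe3. All 3 Aloxe3 values lay above the β-gal values, for a log2 fold change of 0.16 (95% interval 0.018 to 0.31, unadjusted p = 0.0327 and adjusted p = 0.348 from limma), on 114 to 147 reads per library. In the voom fit, where the added RPKM does not shrink it, the estimate was 0.27 (adjusted p = 0.316). Its unadjusted p was over 0.05 with no filter (0.0505), with quantile normalization (0.081) and without β-gal replicate 1 or 3 or Aloxe3 replicate 7 or 8 (0.0568 to 0.108, limma). Of the 50-base windows of Atg4a, 51.2% also occur in Atg4a-ps, a copy on chromosome 3 listed at 0.0661 RPKM or less, and reads that match both were not counted by the authors. The values of Atg4a therefore rest on the remaining windows.

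Atg7, the activating enzyme of the system, with an E-box core before an internal start site, was at 18.5, 19.4 and 19.9 RPKM with β-gal and at 19.5, 20.3 and 18.4 RPKM with Aloxe3. The groups covered the same range, with a log2 fold change of 0.0094 (95% interval -0.1 to 0.12). Atg3, which carries ATG8 to the lipid and has 2 such cores, was at 11.9, 11.3 and 11.6 RPKM with β-gal and at 12.1, 13.4 and 11.6 RPKM with Aloxe3. Replicate 8 was the highest, the groups overlapped, and the log2 fold change was 0.08 (95% interval -0.05 to 0.21). Without Aloxe3 replicate 8 it was 0.024 and without replicate 9 it was 0.12. Atg5, which forms the ligase with ATG12 and ATG16L1, was at 11.5, 12.6 and 12.7 RPKM with β-gal and at 12.2, 13 and 11.3 RPKM with Aloxe3. Its log2 fold change was -0.016 (95% interval -0.15 to 0.12). The 4 genes with the core had log2 fold changes from -0.098 to 0.08.

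Atg16l1, the part of the ligase that places it on the membrane, was at 6.17, 5.92 and 5.77 RPKM with β-gal and at 5.75, 5.33 and 5.34 RPKM with Aloxe3. The groups did not overlap, though Aloxe3 replicate 7 and β-gal replicate 3 nearly touched, and the log2 fold change was -0.1 (95% interval -0.21 to 0.0055, adjusted p = 0.414 from limma). Its paralog Atg16l2 also did not overlap, at 5.28 ± 0.033 RPKM with β-gal against 5.02 ± 0.18 RPKM (SD over 3 libraries), a log2 fold change of -0.061 (limma adjusted p = 0.576). Atg4c, another trimming protease, was at 3.02, 3.29 and 3.18 RPKM with β-gal and at 3.05, 3.62 and 3.35 RPKM with Aloxe3, with overlap and a log2 fold change of 0.06. Without β-gal replicate 1 this was 0.034, without Aloxe3 replicate 7 it was 0.11 and without Aloxe3 replicate 8 it was 0.013. Overlap was also found for the proteases Atg4b (-0.019) and Atg4d (-0.086, from -0.14 without Aloxe3 replicate 7 to -0.045 without Aloxe3 replicate 9), for Atg10, the enzyme that joins ATG12 to ATG5 (-0.047), and for Atg12 (-0.0073). Of the Atg4d windows, 14.6% occur in Kri1, an overlapping gene of similar level (12.6 to 13 RPKM). Atg10 was the lowest of the 40 genes, at 0.752 to 1.06 RPKM over all libraries.

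The ATG8 proteins coat the autophagosome, and LC3 is the usual marker of autophagy. Among their 5 transcripts Gabarap was the highest and Gabarapl2 the lowest per length. Gabarap was at 214.8, 223.4 and 215.1 RPKM with β-gal and at 213.7, 215.1 and 217.3 RPKM with Aloxe3. These values were the steadiest of the family, with a log2 fold change of -0.016 (95% interval -0.095 to 0.064). Map1lc3a, which encodes LC3A, was at 74.2, 78.1 and 78.2 RPKM with β-gal and at 74.5, 72 and 68 RPKM with Aloxe3. Only Aloxe3 replicate 7 reached the β-gal range, and the log2 fold change was -0.1 (95% interval -0.21 to 0.0005, adjusted p = 0.396 from limma), and -0.068 without Aloxe3 replicate 9. Map1lc3b, which encodes LC3B, was at 11.9, 12.7 and 12.1 RPKM with β-gal and at 12.4, 12.3 and 11.1 RPKM with Aloxe3. The groups overlapped, with a log2 fold change of -0.037 (95% interval -0.16 to 0.08). Gabarapl1 was the most variable between replicates, at 51.4, 63.9 and 60.7 RPKM with β-gal and at 61.5, 61.6 and 55 RPKM with Aloxe3. The groups overlapped, with a log2 fold change of 0.02 (95% interval -0.17 to 0.21). The overlapping transcript 1700101I11Rik, at 0.175 RPKM or less, shares 23.1% of its windows.

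Gabarapl2, which encodes GATE-16 (chromosome 8, 111940703 to 111953612), had the smallest p of the 40 genes. It was at 3.76, 3.87 and 3.64 RPKM with β-gal and at 3.35, 3.32 and 3.27 RPKM with Aloxe3. All Aloxe3 values lay below all β-gal values, and within each group the values were close. Its log2 fold change was -0.14 (95% interval -0.24 to -0.037, unadjusted p = 0.0139 and adjusted p = 0.289 from limma), so that it did not pass, and over the alternatives its adjusted p ranged from 0.219 to 0.631. The interval included 0 with voom (-0.36 to 0.0044, unadjusted p = 0.0551) and without β-gal replicate 2 (-0.25 to 0.0084, unadjusted p = 0.0626 from limma). Reads numbered 199 to 292 per library. Of its 50-base windows, 12.2% occur in transcripts of 4 other genes, first among them Gm3724.

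Cargo receptors tie ubiquitinated proteins and organelles to ATG8. Sqstm1, which encodes p62 (chromosome 11, 50199366 to 50210827), ranked 33 among all genes in the table by its mean β-gal level. It was at 883.1, 926.5 and 921.4 RPKM with β-gal and at 900.4, 871.3 and 807.4 RPKM with Aloxe3. Aloxe3 replicate 7 lay within the β-gal range and replicates 8 and 9 below it. The log2 fold change was -0.084 (95% interval -0.2 to 0.036, adjusted p = 0.537 from limma), and -0.039 without Aloxe3 replicate 9. The overlapping gene Mrnip, which shares 15.5% of the Sqstm1 windows, was at 0.334 to 0.681 RPKM. Nbr1, a receptor related to p62, was at 19.8, 21.9 and 22.2 RPKM with β-gal and at 22.2, 22.5 and 20.4 RPKM with Aloxe3, which overlapped (0.027, 95% interval -0.1 to 0.16). Optn, the optineurin gene, was at 16.8, 17.1 and 17.4 RPKM with β-gal and at 17.5, 17.7 and 18 RPKM with Aloxe3. Each Aloxe3 value was above the β-gal values, but the difference was small (log2 fold change 0.047, 95% interval -0.032 to 0.13, adjusted p = 0.592 from limma). Epg5, a tether for fusion with the lysosome, had a log2 fold change of -0.023 and overlapping groups.

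The MiT/TFE factors are related helix-loop-helix proteins. Tfe3 (chromosome X, 7762560 to 7775202) was the most abundant of the 3 per length. It was at 12.5, 12.4 and 12.5 RPKM with β-gal and at 12.3, 11.4 and 12.1 RPKM with Aloxe3. The β-gal values were almost equal and all Aloxe3 values lay below them, with a log2 fold change of -0.063 (95% interval -0.16 to 0.03, adjusted p = 0.548 from limma), and -0.032 without Aloxe3 replicate 8. Tfeb (chromosome 17, 47737030 to 47792419), the factor best known for fasting responses in liver, was at 1.77, 1.92 and 1.81 RPKM with β-gal and at 2.09, 1.87 and 1.87 RPKM with Aloxe3. Aloxe3 replicate 7 was the highest and the other two lay within the β-gal range. The log2 fold change was 0.056 (95% interval -0.076 to 0.19, adjusted p = 0.722 from limma), and 0.021 without Aloxe3 replicate 7. Mitf (chromosome 6, 97807052 to 98021349), best known from melanocytes, was at 2.45, 2.46 and 2.42 RPKM with β-gal and at 2.88, 2.51 and 2.25 RPKM with Aloxe3, so that the Aloxe3 values fell on both sides of the control (0.041, 95% interval -0.12 to 0.2). Without Aloxe3 replicate 7 its log2 fold change was -0.026.

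**Figure D3:**
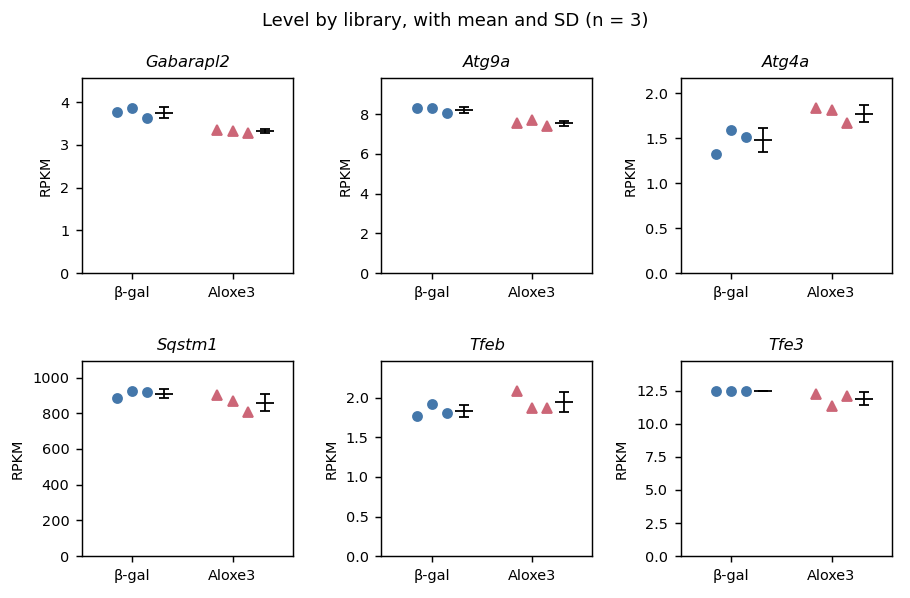
RPKM (vertical axes, from 0) in each library for the 3 genes with an unadjusted p under 0.05 (Gabarapl2, Atg9a and Atg4a), for Sqstm1 and for the MiT/TFE factors Tfeb and Tfe3. Circles are β-gal and triangles Aloxe3 libraries, and the bars give the mean and SD (n = 3). In Gabarapl2, Atg9a, Atg4a and Tfe3 the groups do not overlap, in Sqstm1 and Tfeb they do.

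Aloxe3 replicate 9 stood apart from the other libraries, beyond the 40 genes as well. In derived reads over 14243 or more genes it differed from Aloxe3 replicates 7 and 8 by a chi-square per gene of 8.99 and 9.82, against 3.47 to 5.46 for the other replicate pairs. Of the 40 genes, 22 (55%) had their lowest value in this library, as had 30% of all tested genes. Relative to the β-gal mean on the log2(RPKM + 1) scale, the median of the 40 genes was -0.083 in Aloxe3 replicate 9, against -0.0075 in replicate 7 and 0.0025 in replicate 8. Over all tested genes the medians of these 3 libraries were -0.012, 0.01 and 0.015. For the 40 genes the β-gal libraries were at -0.028, 0.024 and 0.0062. Without Aloxe3 replicate 9 the median log2 fold change of the 40 genes was -0.0065, and again 0 genes passed.

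**Figure D4:**
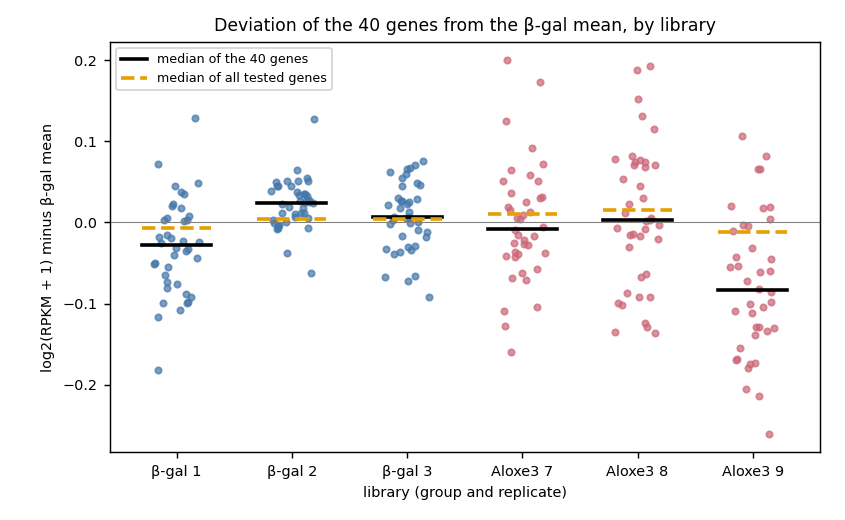
Deviation of each of the 40 genes (points) from its β-gal mean on the log2(RPKM + 1) scale in each of the 6 libraries. Solid bars give the median of the 40 genes and dashed bars that of all tested genes, and the lowest median of the 40 genes, -0.083, is in Aloxe3 replicate 9.

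Other genes of the pathway were examined in 5 hand-written lists, in which 94 different genes were tested. Of these 0 passed the threshold, and 4 had an unadjusted p under 0.05 (limma), all 4 with lower values in Aloxe3 libraries. Of all tested genes 12.7% had such a p, 5.42% with lower values, so that 4 of 94 is below the background. Among 17 other autophagy receptors (median log2 fold change -0.018), Stbd1, a receptor for glycogen, was at 30.7 ± 3.1 RPKM with β-gal against 26.7 ± 1.5 RPKM (SD over 3 libraries, as below), with overlap, and Sec62, a receptor for the endoplasmic reticulum, at 32.7 ± 1.1 and 34.8 ± 0.98 RPKM without overlap (adjusted p = 0.346 and 0.419 from limma). Among 21 other regulators of autophagosome formation (median -0.0045), Zfyve1, which encodes the phosphoinositide-binding protein DFCP1, was at 29.2 ± 0.14 and 27.3 ± 0.5 RPKM without overlap (adjusted p = 0.321), and Rubcn, an inhibitor of the Beclin 1 complex, at 13.1 ± 0.22 and 12.5 ± 0.4 RPKM with overlap (adjusted p = 0.534). The 17 tested genes of autophagosome-lysosome fusion had a median of -0.039, and the SNARE genes Snap29 (0.079) and Ykt6 (-0.073) had the smallest p (adjusted p = 0.406 and 0.414 from limma).

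Genes upstream and downstream of the MiT/TFE factors were examined in the same way. Among 14 regulators of the factors (median log2 fold change 0.03, 10 above 0 and 4 below), the smallest p belonged to Xpo1 (0.076), the exportin that carries such factors out of the nucleus, and Ppp3cb (0.055), a subunit of the phosphatase calcineurin that acts on TFEB, with adjusted p = 0.444 and 0.624 (limma). Among 30 tested genes known as MiT/TFE targets, lysosomal genes for the most part, the median was -0.017, with 12 above 0 and 18 below. The V-ATPase subunit genes Atp6v0e (48.3 ± 0.89 RPKM with β-gal against 44.9 ± 0.96 RPKM) and Atp6v1h (49 ± 2.2 against 44.1 ± 3.8 RPKM) had the smallest p (adjusted p = 0.297 and 0.392 from limma). Pldn and Tmem55b were not matched by symbol, and Ccpg1 was under the filter.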

How the data were processed

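The authors aligned single reads of 50 bases from poly-A selected RNA to Ensembl release 76 (GRCm38.p2) with STAR 2.0.4b, took the reads with 1 alignment and 1 gene as counts from featureCounts 1.4.5 and deposited RPKM values. The step from counts to RPKM is not given in the sources used here. Symbols, coordinates and exon lengths came from GENCODE M21 (40340 identifiers matched, 1048 did not). Genes whose mean over the 6 libraries reached 0.5 RPKM were tested as log2(RPKM + 1) with limma 3.58.1 (R 4.3.3), using moderated statistics with an intensity trend, and called at a Benjamini-Hochberg adjusted p under 0.05. With 3 against 3 libraries, an exact two-sided permutation test of a single gene cannot go below 0.1. Library sizes and reads per gene were derived from the steps of the RPKM values (tolerance 0.02 of a read), with annotated exon lengths for 16548 genes and the smallest length giving whole reads for 8440 (a lower limit on their reads, which are not printed). Shared windows were counted as exact 50-base matches on either strand between GENCODE M21 transcripts of different genes, not against the genome.

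The members and lists were chosen with earlier results of these data known, so no set test was run. All 40 genes are named. Values in each library are given for the ATG8 proteins, cargo receptors, MiT/TFE factors, Ulk1, Becn1, Atg14, Atg5, Atg7 and Atg16l1. They are also given for genes with an unadjusted p under 0.05, and for the 3 largest positive and 3 largest negative log2 fold changes. From each other pathway list the 2 genes with the smallest p are named, a rule that was not applied to the lists of cell markers. Alternatives were a pseudocount of 0.1, no filter, a higher filter of 5 RPKM, scaling of libraries to a common median, quantile normalization, moderation without the trend, voom on the derived reads and each library left out in turn. Replicates of each group differed by more than sampling noise (chi-square per gene 3.47 to 9.82). In simulated reads for 12692 genes, 91 of 100 genes changed at least 2-fold and 20 of 50 changed 1.25-fold were recovered, and 13 unchanged genes were called. The simulation drew each gene independently at a single dispersion of 0.003. It had no shift of a whole library, unlike Aloxe3 replicate 9, so it does not give the power of the test in these data.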

Additional observations from a re-analysis of the deposited data

How the results depend on the processing

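Of the 40 genes, 0 passed the adjusted threshold under any of the 13 alternatives, and the smallest adjusted p of any of them was 0.219 (Gabarapl2 with quantile normalization). The lists of other pathway genes also had 0 genes past it under each alternative. Over all tested genes the count was 50, and it was 7 with no filter, 173 with voom and 6 to 19 with 1 library left out. The count of the 40 genes at an unadjusted p under 0.05 (1 higher and 2 lower) had 0 higher with no filter (8.76% of all tested genes in either direction), with the higher filter of 5 RPKM (13.6%) and with quantile normalization (11.7%), and 5 lower after rescaling to the same median (14.2%), 4 with quantile normalization and 4 with voom (14.5%). With 1 library left out it ranged from 0 to 1 higher and from 0 to 8 lower (8.15% to 14.4% of all tested genes in either direction), and the count of genes without overlap, 8, ranged from 10 to 15 (26.5% to 32.9% of all tested genes). The median log2 fold change stayed within the spread between libraries. Of 513 refits of single genes, 487 kept the sign. Atg7 was at -0.0041 after rescaling to the same median and Rb1cc1 at -0.0097 with quantile normalization. With 1 library left out, log2 fold changes that changed sign ranged from -0.035 to 0.054 for Ulk1, -0.027 to 0.052 for Rb1cc1, -0.096 to 0.0076 for Pik3c3, -0.041 to 0.014 for Ambra1, -0.033 to 0.0076 for Atg4b, -0.061 to 0.032 for Atg5, -0.021 to 0.045 for Atg7, -0.086 to 0.017 for Atg10, -0.029 to 0.017 for Atg12, -0.064 to 0.0083 for Map1lc3b, -0.025 to 0.0029 for Gabarap, -0.071 to 0.084 for Gabarapl1, -0.022 to 0.068 for Nbr1, -0.068 to 0.015 for Epg5 and -0.026 to 0.10 for Mitf. The cause was not tested. The higher filter left 33 of the 40 genes and removed Atg4a and Gabarapl2. The loss of Atg4a from its count was thus fixed by the filter, and its 2 lower genes were not the same 2. The labels do not say whether β-gal and Aloxe3 libraries were matched, so no paired analysis was run.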

Other observations

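The make-up of the gene families was compared per length. Per length, Gabarap gave 58.2% to 61.3% of the summed level of the 5 ATG8 transcripts over the 6 libraries, Map1lc3a 19.2% to 21.2%, Gabarapl1 14.4% to 16.9%, Map1lc3b 3.13% to 3.39% and Gabarapl2 0.913% to 1.06%. The groups did not overlap in the share of Map1lc3a (20.5% to 21.2% with β-gal, 19.2% to 20.4% with Aloxe3) and of Gabarapl2 (0.983% to 1.06% and 0.913% to 0.922%), and overlapped in the other 3. In the level of Map1lc3a itself the groups overlapped. The levels of 19.9% of all tested genes did not overlap, and no such background was computed for shares or sums of families. The summed level of the family was 369.3 ± 13 RPKM in the β-gal libraries against 361.5 ± 5.9 RPKM (SD over 3 libraries), with overlapping groups. Of the 3 MiT/TFE factors, Tfe3 gave 71.2% to 74.8%, Mitf 13.9% to 16.7% and Tfeb 10.6% to 12.1% of the sum. The share of Tfeb was 10.9% ± 0.44 with β-gal and 11.8% ± 0.29 with Aloxe3 (SD, n = 3 each), with 10.6%, 11.4% and 10.8% in the β-gal and 12.1%, 11.9% and 11.5% in the Aloxe3 libraries, which do not overlap. Most of this sum is Tfe3, whose log2 fold change was -0.063, and in the level of Tfeb itself the groups overlapped.

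Among paralogs, Ulk1 exceeded Ulk2 in every library, with 60.3% to 64.7% of their sum, Atg2a gave 73.8% to 75.9% of the sum with Atg2b, and Wipi2 58.3% to 63.3% of the sum with Wipi1. Atg16l1 and Atg16l2 were closer to each other, with 50.6% to 53.7% for Atg16l1, and their sum was 11 to 11.5 RPKM with β-gal and 10.2 to 10.7 RPKM with Aloxe3, which do not overlap. Of the 4 ATG4 proteases, Atg4d and Atg4b (32.1% to 33.6%) made up most of the sum. The groups did not overlap for Atg4d (45.9% to 46.1% with β-gal, 42.4% to 45.6% with Aloxe3) nor for Atg4a, which gave 6.2%, 7.14% and 6.89% with β-gal and 8.26%, 8.28% and 8.06% with Aloxe3. In the level of Atg4d itself the groups overlapped. These shares are descriptions with no test. Reads of near-identical copies and reads that fall on 2 overlapping genes were not counted. Of the 50-base windows, 51.2% were shared for Atg4a, 23.1% for Gabarapl1 and 14.6% for Atg4d, against 0.321% for Atg4b and 0% for Gabarap. The shares may therefore be too low for genes with many shared windows, by an amount that was not estimated.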
